A study of Mus musculus with 51 samples.

Results

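The ribosomal protein genes were followed through meiotic prophase I in mouse testis as a set of housekeeping promoters. The set held 72 of the 20807 autosomal protein-coding genes of GENCODE M21: 43 genes of the large subunit and 29 of the small subunit. Members were taken by symbol (Rpl or Rps with a number, or Rplp0, Rplp1, Rplp2 and Rpsa), and the symbol rule uses no measured value. A member was counted as called in a list when a peak lay within 500 bp of any of its annotated transcription start sites (TSSs). Its width was that of the widest such peak. 4 X-linked members, Rpl10, Rpl36a, Rpl39 and Rps4x, were not counted because only chromosomes 1 to 19 were used. The other 20735 autosomal protein-coding genes served as background throughout.

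Peaks had been called by ChIP-Seq on whole-testis nuclei of wild-type adult male C57Bl/6J mice, fixed with formaldehyde and sorted by flow cytometry on DNA content and labelled nuclear proteins into leptonema (LE), zygonema (ZY), early pachynema (EP), late pachynema (LP) and diplonema (DI). All groups share strain, genotype, sex and age and are labelled by stage. Trimethylation of histone H3 at lysine 4 (H3K4me3) had 2 libraries per stage, from experiments 1 and 2. An antibody that also binds the dimethylated form (H3K4me2/3) had 1 library per stage, from experiment 2, and acetylation at lysine 9 (H3K9ac) had 1 library per stage, from experiment 1. The titles of the H3K9ac samples name that mark, but their antibody label names H3K4me3 with a catalogue number that another sample of the series gives for H3K9ac, and the titles were followed. Nothing states that experiments 1 and 2 came from separate animals, so p-values measure only the spread between these libraries.

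Cytoplasmic ribosomes are built from a large and a small subunit, each with its own ribosomal RNA and a near equimolar set of proteins. The genes for these proteins are transcribed at a high rate in nearly all growing cells, and their messenger RNAs typically start with a C followed by a run of pyrimidines, the terminal oligopyrimidine tract, through which their translation is controlled. H3K4me3 marks the nucleosomes that flank active or poised TSSs, H3K4me2 reaches further from the TSS, and H3K9ac accompanies active promoters. In spermatocytes H3K4me3 is also laid down away from genes, at the sites of recombination.

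The 20 lists held from 516 to 30943 peaks and 238528 in all, and carried neither scores nor read counts, so the depth behind a call was not used here. The labelled cell type was checked against genes chosen after seeing the data. Sycp3, Hormad1 and Spo11 of the meiotic chromosome axes and breaks had H3K4me3 in all 10 libraries, and Meiob, Sycp1 and Dmc1 in 9, 8 and 4. Of 11 genes that mark Sertoli cells, Leydig cells or leukocytes, the Sertoli cell gene Wt1 was called in 2 H3K4me3 libraries, and Sox9 and the Leydig cell gene Insl3 in 1 each. The other 8, including the 3 leukocyte genes, had no H3K4me3 call, and neither had Prm1 and Tnp1 of the later spermatid. H3K4me2/3 was called at Wt1 in 2 libraries and at Sox9, Insl3 and the Sertoli cell gene Cldn11 in 1 each. Of the 20735 background genes, 9313 had no H3K4me3 call in any library and 18.1% had one in all 10. A missing call is thus common and does not show that a sort was pure.

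The starts of the members shared letters beyond their symbols, and a few are shown because the calls described next refer to them. The first group shows the pyrimidine run that holds the annotated start, in capitals. It is read from 60 bases upstream to base 10 of the transcript, 5′ to 3′, from RefSeq GRCm38.p6 (mm10) at the representative GENCODE start. Rpl4 (chr9:64173315-64173384, plus strand) had the highest mean H3K4me3 width of the set, Rpl37a (chr1:72711230-72711299, plus) carries a typical tract, Rps2 (chr17:24720050-24720119, plus) has the longest run of the set, Rps24 (chr14:24490658-24490727, plus) had narrow peaks, and Rps21 (chr2:180257317-180257386, plus) had no peak. The runs of Rps2 and Rps24 go on past the last base shown.
Rpl4: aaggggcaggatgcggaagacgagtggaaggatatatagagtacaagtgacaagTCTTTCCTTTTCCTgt
Rpl37a: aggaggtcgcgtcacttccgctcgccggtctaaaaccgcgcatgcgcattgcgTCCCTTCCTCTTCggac
Rps2: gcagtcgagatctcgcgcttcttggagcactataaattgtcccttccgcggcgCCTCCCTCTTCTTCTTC
Rps24: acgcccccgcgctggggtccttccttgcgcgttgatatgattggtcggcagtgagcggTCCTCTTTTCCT
Rps21: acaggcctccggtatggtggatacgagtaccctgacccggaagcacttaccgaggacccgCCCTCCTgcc

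A pyrimidine run of at least 5 bases held the representative start of 13 of the 72 members (18.1%), against 9.73% of the other genes. The start base was C in 34.7% of members and 17.7% of the other genes. An annotated representative start can differ from the start used in a cell, so these shares describe the annotation. The longest run at a member was 20 bases, at Rps2. Rps21, which had no peak in any list, had a run of 7 bases, so a run was present at members with and without calls.

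The second group was chosen for the letters TCTCGCGA, a palindromic CG-rich element of some housekeeping promoters, with each occurrence on either strand in capitals. Where the letters and their reverse complement TCGCGAGA overlap, 10 bases are capital. Rps6 (chr4:86857403-86857472, minus strand) and Rps28 (chr17:33824553-33824622, minus) were called in all 10 H3K4me3 libraries, Rpl10a (chr17:28328508-28328577, plus) in 9, and Rpl26 (chr11:68901523-68901592, plus) in 8.
Rps6: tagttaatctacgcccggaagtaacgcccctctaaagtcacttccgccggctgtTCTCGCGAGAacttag
Rps28: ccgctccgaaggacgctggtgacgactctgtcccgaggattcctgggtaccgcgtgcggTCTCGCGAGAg
Rpl10a: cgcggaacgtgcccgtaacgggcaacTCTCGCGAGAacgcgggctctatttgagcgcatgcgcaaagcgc
Rpl26: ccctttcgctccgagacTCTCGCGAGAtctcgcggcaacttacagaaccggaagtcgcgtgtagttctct

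TCTCGCGA lay between -100 and +50 at 11 members (15.3%), against 0.942% of all protein-coding starts. The letters CTTCCG, the core of sites for ETS factors, or CGGAAG on the other strand, lay at 38 members (52.8%) against 15.2% of all starts. AAGATGG, the core of YY1 sites, lay at 7 members (9.72%) against 3.65%, and TATAA at 18 (25%) against 12.5%. Among the 10068 other genes with an H3K4me2/3 peak at all 5 stages the shares were 1.66% for TCTCGCGA, 25.5% for CTTCCG, 5.07% for AAGATGG and 4.85% for TATAA. Members were CpG-rich, with a median observed to expected CpG ratio of 0.821 within 500 bp of the start, against 0.763 in those genes and 0.582 in all other genes. Both strands were searched, occurrences of different motifs were allowed to overlap, and a match of letters is not a bound site.

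**Figure D1:**
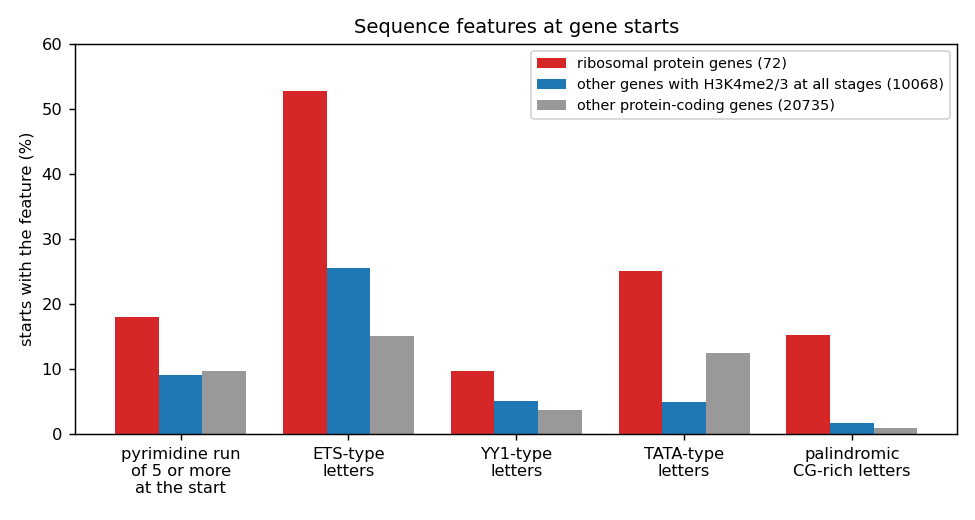
Bars show the percentage of gene starts with a pyrimidine run of at least 5 bases at the start or with 1 of 4 motifs from 100 bases before to 50 after the start. From left to right the motifs are CTTCCG (ETS-type), AAGATGG (YY1-type), TATAA and TCTCGCGA (palindromic). The ribosomal protein genes (red) stand above both comparison groups for every feature, with the CTTCCG letters at 52.8% of them.

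H3K4me3 was called at most members in every stage. In LE, 55 and 65 of 72 members had a peak in experiments 1 and 2, against 39.1% and 46.9% of the other genes. In ZY the counts were 59 and 61, against 36.7% and 35.7%. In EP they were 64 and 58, against 33.8% and 25.3%. In LP they were 56 and 60, against 26.6% and 40.2%, and in DI 48 and 63, against 29.2% and 46.7%. As shares of the set these counts ran from 66.7% (DI, experiment 1; exact binomial 95% interval 54.6 to 77.3%, which covers counting error over genes only) to 90.3% (LE, experiment 2; 81.0 to 96.0%). The members' share was 1.87 to 3.18 times that of the other genes. The smallest ratio was in DI of experiment 2 and the largest in EP of experiment 2, the shortest H3K4me3 list with 4883 peaks.

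**Figure D2:**
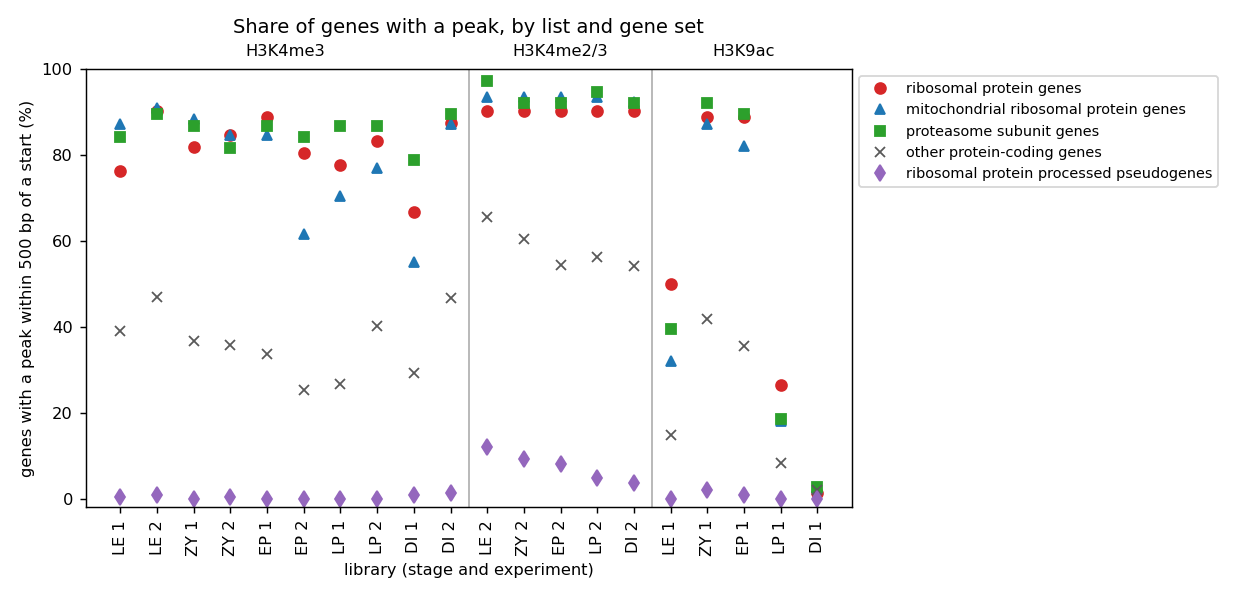
The plot gives the percentage of genes with a peak within 500 bp of a start (vertical axis) in each of the 20 lists (horizontal axis, stage and experiment) for 5 gene sets. Ribosomal protein genes (red circles) lie between 66.7% and 90.3% in the H3K4me3 lists and at 90.3% in each H3K4me2/3 list, while H3K9ac falls from 88.9% in ZY and EP to 1.39% in DI.

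The question of the stage contrasts was whether this set changed between stages. Sort purity and starting chromatin differed between libraries, as the study reports, and no sorted population was fully pure. Each stage label therefore also covers some nuclei outside that stage. What part these differences had in the contrasts, and in calls absent from single stages or libraries, was not tested. The share of members with H3K4me3 was 83.3% ± 5.78 (SD, n = 4 libraries) in LE and ZY and 80.8% ± 8.07 (SD, n = 6) in EP, LP and DI. The difference of 2.55 points was within the spread of the libraries (exact permutation test, two-sided as all tests here, with 210 ways to split the libraries, p = 0.657, 0.833 after Benjamini-Hochberg adjustment over 6 tests). The share was 82.6% ± 4.74 (SD, n = 4) in EP and LP and 81.3% ± 8.60 (SD, n = 6) in the other stages (exact permutation test, p = 0.833, adjusted 0.833). Within experiments this second difference had opposite signs, 8.33 points in experiment 1 and -5.56 points in experiment 2. The first was 1.39 points in experiment 1 and 3.70 points in experiment 2.

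The contrasts differed when each H3K4me3 list was held to its 4883 widest peaks, which sets a common length and a different width limit in each list. The members' share was then 13.9 to 43.1% in the 4 LE and ZY libraries and 41.7 to 80.6% in the 6 later ones. The mean difference of LE and ZY from the later stages was -30.3 points (exact permutation test, p = 0.0190, adjusted 0.0286), and that of EP and LP from the other stages was 33.9 points (p = 0.00476, the smallest that 210 splits give, adjusted 0.0143). The other genes moved in the same directions by less: 18.2% in LE and ZY against 24.5% later, and 25.2% in EP and LP against 19.8% in the other stages. The narrowest peak kept was 154 bp wide in EP of experiment 2 and 940 bp in DI of experiment 2. The cut took nothing from EP of experiment 2 and the most peaks from ZY of experiment 1. The tests on cut lists therefore cannot separate stage from the original length of the lists. In the full lists the number of members called did not follow length alone: EP of experiment 1, with 6647 peaks, had 64, and ZY of experiment 1, with 15699, had 59.

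**Figure D3:**
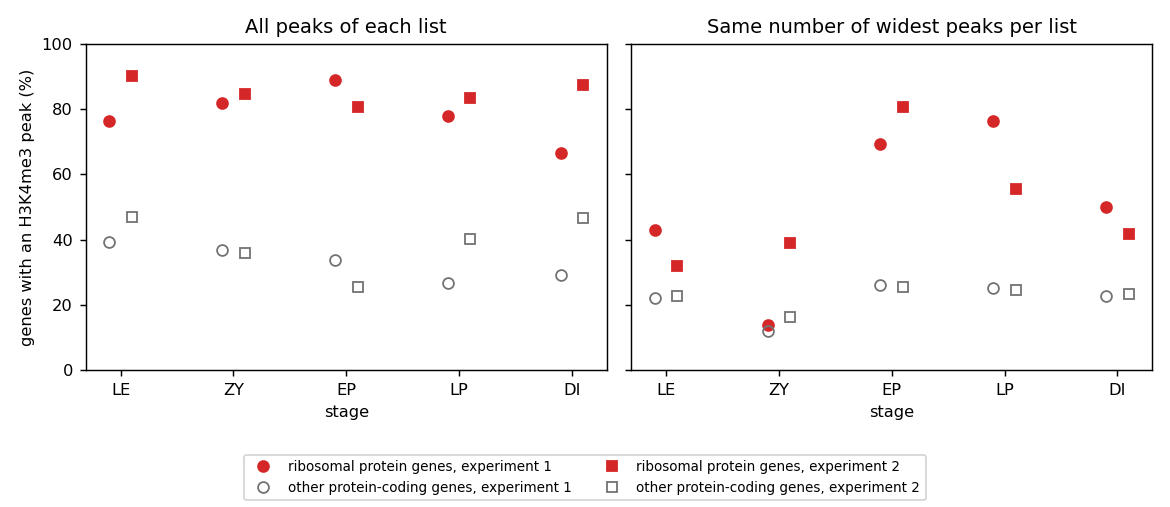
Each point is 1 H3K4me3 library, with the stage on the horizontal axis and the percentage of genes with a peak on the vertical axis, for all peaks (left) and for the 4883 widest peaks of each list (right). On the left the ribosomal protein genes (red) stay between 66.7% and 90.3%; on the right they lie between 13.9% in ZY of experiment 1 and 80.6% in EP of experiment 2.

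37 of the 72 members were called in all 10 H3K4me3 libraries, against 18.1% of the other genes, and 13 more in 9 libraries. The 37 were 19 of 43 large subunit genes and 18 of 29 small subunit genes. Among genes with H3K4me2/3 at all 5 stages, 37 of 65 members (56.9%) and 37.3% of 10068 other genes were called in all 10. By comparison, 29 of 78 mitochondrial ribosomal protein genes and 27 of 38 proteasome subunit genes were called in all 10. Of 248 processed pseudogenes of ribosomal protein genes, 6 had an H3K4me3 peak in any library and none had it in all 10.

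**Figure D4:**
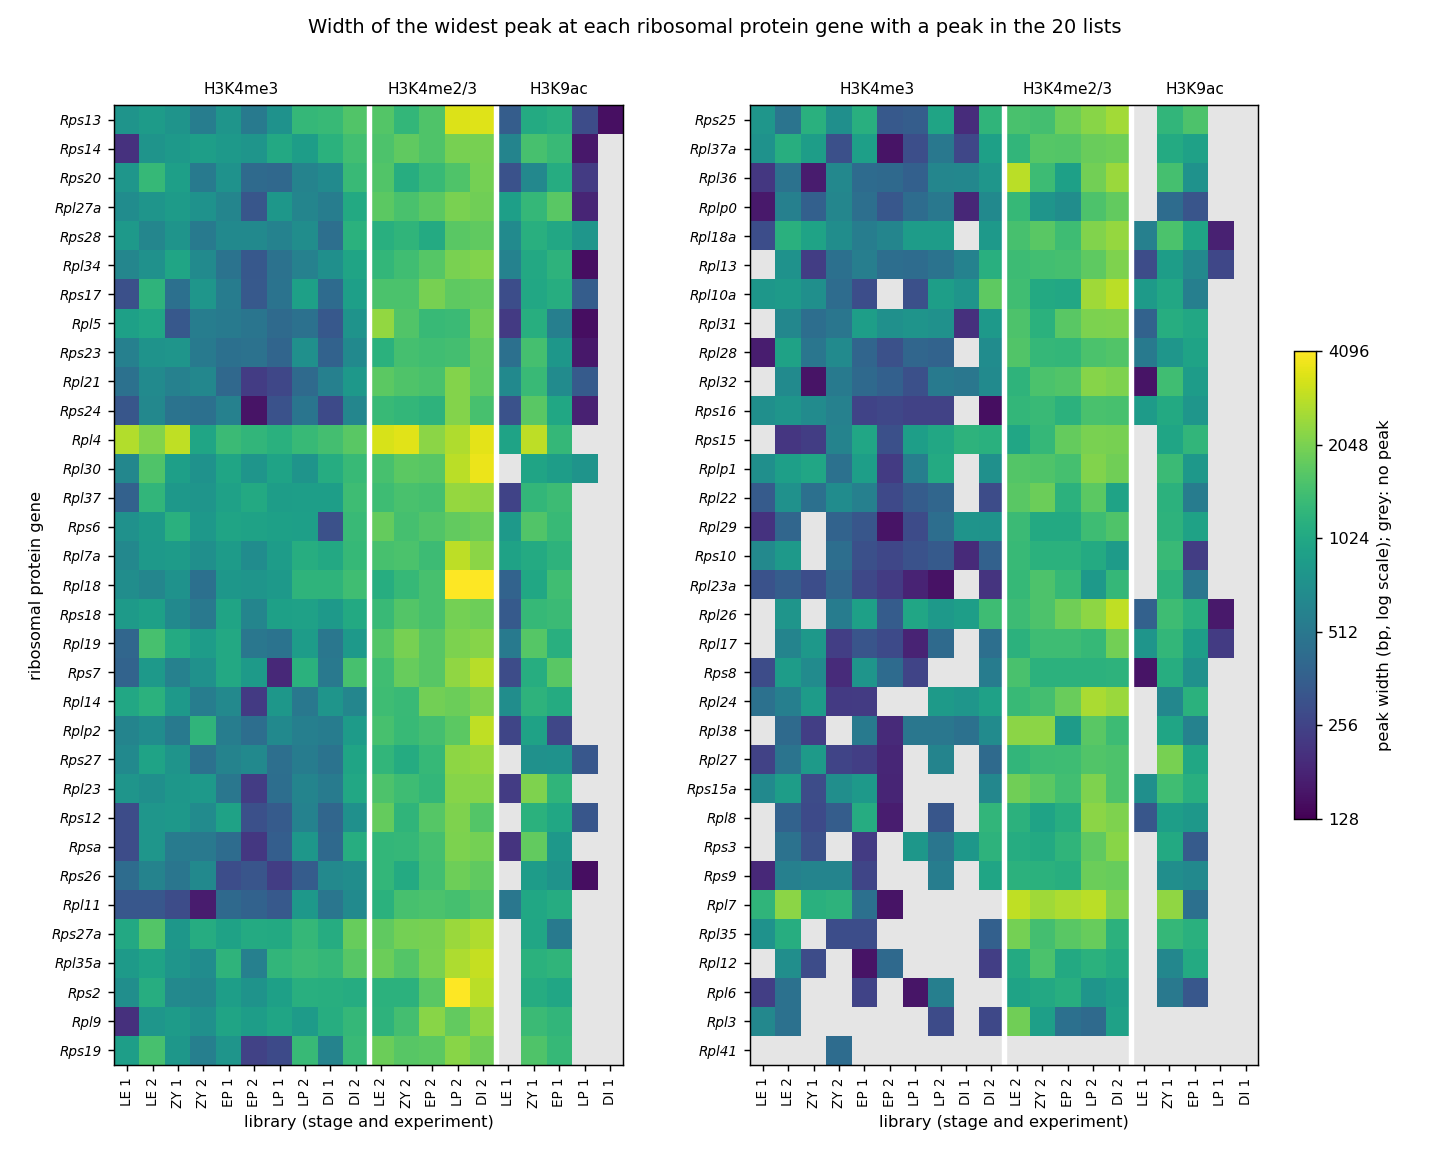
Each row is 1 ribosomal protein gene with a peak in at least 1 of the 20 lists and each column 1 library; colour gives the width in bp of the widest peak on a log scale and grey marks no peak. The left panel and the first 4 genes of the right panel are the 37 genes with H3K4me3 in all 10 libraries, and the H3K9ac columns empty out in LP and DI.

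Member peaks were close in width to those of other genes, the ratio of medians being 0.786 in DI of experiment 1 to 1.10 in ZY of experiment 1. The median width of a called member was 635 and 782 bp in LE, 753 and 590 bp in ZY, 585.5 and 360 bp in EP, 449.5 and 624.5 bp in LP, and 601.5 and 921 bp in DI, for experiments 1 and 2. The narrowest medians were in EP and LP and the widest in DI of experiment 2, and the groups overlapped. It was 505 ± 122 bp (SD, n = 4 libraries) in EP and LP and 714 ± 129 bp (SD, n = 6) in the other stages, a difference of -209 bp (exact permutation test, p = 0.0429, adjusted 0.257), which did not pass the threshold of 0.05 after adjustment. The difference was -146 bp within experiment 1 and -272 bp within experiment 2. For the other genes the same means were 512 bp in EP and LP and 739.5 bp in the other stages.

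LE and ZY against the later stages gave 690 ± 92.1 bp (SD, n = 4) and 590 ± 192 bp (SD, n = 6), a difference of 99.7 bp within the spread (exact permutation test, p = 0.348, adjusted 0.695). The difference was 149 bp within experiment 1 and 50.8 bp within experiment 2. Ranked by width within its own list, the median member stood at percentile 56.2 ± 1.85 (SD, n = 4) in LE and ZY and 52.4 ± 6.64 (SD, n = 6) later (exact permutation test, p = 0.310, adjusted 0.695). In EP and LP it stood at 53.3 ± 5.58 (SD, n = 4) and in the other stages at 54.4 ± 5.80 (SD, n = 6; exact permutation test, p = 0.752, adjusted 0.833). The first rank difference was 4.54 and 2.95 points within experiments 1 and 2, and the second 4.30 and -6.55 points. At 4883 peaks per list these rank differences became -16.2 points (exact permutation test, p = 0.00952, adjusted 0.0190) and 17.2 points (p = 0.00476, adjusted 0.0143). They also turned when only peaks wider than the list median were used, to -21.8 points (exact permutation test, p = 0.00952, adjusted 0.0429) and 21.3 points (p = 0.0143, adjusted 0.0429). Both settings select peaks by width, the measure that is ranked, at a limit that differs between lists. These p-values therefore cannot separate a change between stages from the cut itself.

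The centres of the peaks, rather than whole peaks, lay mostly downstream of the representative start. In the H3K4me3 lists the median centre of the widest peak was 96.5 to 279.5 bp downstream of it, against 99.5 to 198.5 bp at the other genes. A peak covered the start at 29.3 to 90.8% of called members and 32.7 to 81.1% of called other genes. Wholly downstream peaks were found at 39 of the 58 members called in EP of experiment 2 (67.2%, other genes 57.2%) and at 5 of 65 in LE of experiment 2 (7.69%, other genes 13.3%). The short peaks of EP in experiment 2 thus lay mostly past the representative start, with a median centre 279.5 bp downstream of it. The wider peaks of LE in that experiment covered the start itself at 59 of 65 members (90.8%, other genes 81.1%).

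Among the members called in all 10 libraries, Rpl4, whose protein lines the exit tunnel of the ribosome, had the highest mean H3K4me3 width. It measured 2758 and 2133 bp in LE, 2924 and 977 bp in ZY, 1356 and 1245 bp in EP, 1158 and 1314 bp in LP, and 1456 and 1694 bp in DI, a mean of 1702 ± 679 bp (SD, n = 10 libraries). 3 of its 4 early libraries were wider than every later one, and ZY of experiment 2 was the narrowest of all. The start of Zwilch, a kinetochore gene on the other strand, lies 271 bp from that of Rpl4 and was covered by the Rpl4 peak in all 10 libraries. Rps27a, which encodes a fusion of ubiquitin and a ribosomal protein, followed with a mean of 1183 ± 317 bp (SD, n = 10), from 803 bp in ZY of experiment 1 to 1836 bp in DI of experiment 2, and its peaks always covered the start of Clhc1. Rpl35a (1066 ± 346 bp), Rpl30 (975 ± 289 bp) and Rpl37 (926 ± 276 bp; SD, n = 10) completed the 5 widest.

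The 5 narrowest of these members were Rpl11, Rplp0, Rps24, Rps26 and Rpl36. Rpl11, which forms the 5S ribonucleoprotein with Rpl5 and binds Mdm2 when ribosome assembly is disturbed, measured 329 and 329 bp in LE, 287 and 167 bp in ZY, 416 and 381 bp in EP, 338 and 811 bp in LP, and 502 and 673 bp in DI (mean 423 ± 191 bp, SD, n = 10). Its widest peaks were in LP and DI of experiment 2. Rpl5 had a mean of 581 ± 234 bp (SD, n = 10), from 332 bp in DI of experiment 1 to 996 bp in LE of experiment 2. Rps24 averaged 435 ± 163 bp, Rps26 476 ± 172 bp and Rpl36 478 ± 198 bp (SD, n = 10 each).

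The stalk of the large subunit, which recruits the translation factors, is built on Rplp0 with Rplp1 and Rplp2. Rplp0 was among the narrowest, with a mean of 433 ± 174 bp (SD, n = 10) and a range of 162 to 666 bp. Rplp2 had 671 ± 228 bp (SD, n = 10), and Rplp1 732 ± 271 bp in the 9 libraries that called it, all but DI of experiment 1. In the small subunit, Rpsa, also known as the laminin receptor precursor, averaged 550 ± 276 bp and Rps19, the gene most often mutated in Diamond-Blackfan anaemia, 836 ± 437 bp (SD, n = 10 each). Rps19 ranged from 252 bp in EP of experiment 2 to 1498 bp in LE of experiment 2, and its LP peaks were 279 and 1328 bp. Within a library the coefficient of variation over the 37 members was 30.2 to 66.7%, and for a member over the 10 libraries 20.7 to 56.4%.

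Members with wide peaks in 1 experiment tended to have them in the other. Over the 37 members, the mean width in experiment 1 and in experiment 2 had a Pearson r of 0.813 and a Spearman rho of 0.778 across genes, which are not independent replicates and share their TSS windows. Mean H3K4me3 and H3K4me2/3 widths had r = 0.827 (rho = 0.762) across the same 37 genes. Mean H3K4me3 width and mean H3K9ac width in ZY and EP had r = 0.473 (rho = 0.316).

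6 of the 72 members lost their H3K4me3 call in a stage, meaning no peak in either library of the stage and a peak in both libraries of another, against 13.7% of the other genes. None was lost in LE (other genes 2.9%), 2 in ZY (6.15%), 1 in EP (10.3%), 4 in LP (6.33%) and 2 in DI (3.58%). Among genes with H3K4me2/3 at all stages the shares were 9.23% of members and 23.9% of the others. All 6 kept an H3K4me2/3 peak at every stage, so the loss was one of H3K4me3 calls. The count rose to 10, 15 or 17 when LP of experiment 2 or EP of experiment 1 (10 each), LE of experiment 2 (15) or DI of experiment 2 (17) was left out. It was 38 at 4883 peaks per list and 19 with only the wider peaks.

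Rpl7, of the large subunit, had the highest mean width of these 6, 1073 bp over its 6 libraries. Its peak measured 1239 and 2231 bp in LE, 1154 and 1198 bp in ZY, and 462 and 154 bp in EP, and no peak was called in LP or DI. The LE and ZY peaks reached 999 to 1667 bp upstream of the Rpl7 start, and in 2 libraries they covered the start of Rdh10, a retinol dehydrogenase gene that begins 1112 bp away on the other strand. H3K4me2/3 stayed wide at 2944, 2510, 2663, 2853 and 2097 bp from LE to DI. With windows of 1000 bp Rpl7 was no longer lost in LP and DI: experiment 2 then had a peak of 237 bp in LP, from 960 to 724 bp upstream of the start, and one of 357 bp in DI, from 1049 to 693 bp upstream. The losses of the other 5 members did not change with that window.

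Rpl12, Rpl35 and Rps15a were lost in LP. Rpl12, which lies at the base of the stalk, had 711 bp in LE of experiment 2, 285 bp in ZY of experiment 1, 153 and 418 bp in EP, and 244 bp in DI of experiment 2. Rpl35, next to the exit tunnel, had 745 and 1108 bp in LE, 289 bp in ZY of experiment 2, 291 bp in EP of experiment 1 and 368 bp in DI of experiment 2. All Rpl12 peaks, and all Rpl35 peaks but that of LE in experiment 2, lay downstream of the start. The windows of both also hold the start of another gene, Lrsam1 at Rpl12 and Arpc5l at Rpl35. Rps15a had 666 and 886 bp in LE, 286 and 714 bp in ZY, 827 and 183 bp in EP, none in LP, and 641 bp in DI of experiment 2. It was called in both libraries of the first 3 stages and is the only small subunit gene of the 6. Rpl6 was called in both LE (242 and 467 bp) and both LP libraries (155 and 573 bp), in EP of experiment 1 (256 bp), and in none of ZY and DI.

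**Figure D5:**
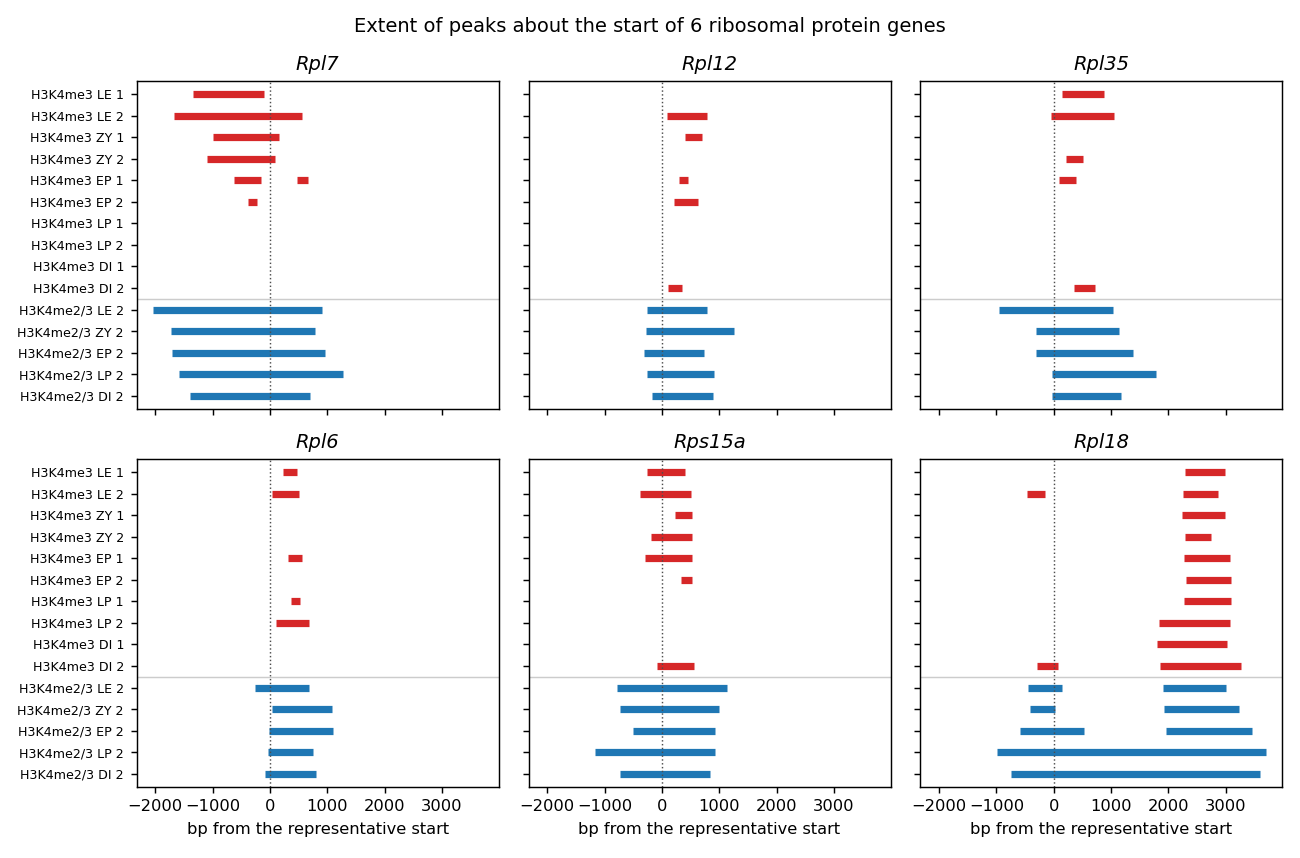
Horizontal bars give the extent of each peak within 500 bp of a start, in bp from the representative start (dotted line; negative is upstream) for 6 genes in the 10 H3K4me3 libraries (red) and 5 H3K4me2/3 libraries (blue). The genes that lost an H3K4me3 call kept H3K4me2/3 at every stage, and Rpl18 has its widest H3K4me3 peak at least 1808 bp downstream of the representative start in all 10 libraries.

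Rpl3, at the peptidyl transferase centre, was called in LE (642 and 464 bp), in LP of experiment 2 (282 bp) and in DI of experiment 2 (270 bp), and lost in ZY and EP. Its calls came from an annotated upstream start on chromosome 15 at base 80091868 (mm10), 524 bp from the start of Syngr1, a synaptic vesicle gene on the other strand, and each of these peaks covered the Syngr1 start. At the representative start, base 80083406, the nearest peak of any list was 7013 bp away. Rpl3 therefore had no peak of any mark when only the representative start of each gene was used. Rpl18 also depended on its starts: it was called in all 10 libraries, but in 2 at its representative start, and its peaks covered a start of Sphk2, a sphingosine kinase gene, in all 10. In all, 16 members had a peak that covered a start of another protein-coding gene in at least 1 H3K4me3 library. The same count was not made for the other genes, so it cannot be read as high or low.

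6 members, 2 of the large and 4 of the small subunit, had no peak in any of the 20 lists used here (other genes 31.5%). Among them were Rpl13a, which is also known for silencing translation after interferon treatment, Rpl15, Rps21 and Rps29. Rpl41, which encodes the shortest ribosomal protein, had 1 peak, of 433 bp, in ZY of experiment 2. The stretch without a peak of any mark was 56241 bp long at Rpl15, 38140 bp at Rps21 and 19242 bp at Rps29. The nearest peak was 2134 bp from the start of Rps29, 5830 bp from Rpl13a, 8795 bp from Rps21 and 27946 bp from Rpl15.

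Sequence features of the 7 members with at most 1 H3K4me3 call overlapped those of the rest. Their median GC content within 500 bp of the start was 58.7%, against 57.7% in the 37 members called in all 10 libraries, and their CpG ratio was 0.819 against 0.845. The share of 31-base words of this window that occur elsewhere in the genome was 0 to 40.9% (median 6.29%) in the 7 and 0 to 31.6% (median 4.85%) in the other 65. Rps29 had the 40.9%, while Rpl13a had 0%. The cause of the absent calls was not tested.

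H3K4me2/3 was called at the same 65 members in all 5 stages, against 65.6% of the other genes in LE, 60.4% in ZY, 54.5% in EP, 56.3% in LP and 54.2% in DI. A peak at all 5 stages was found at 48.6% of the other genes. The missing members were the 6 genes without any peak and Rpl41. The share differed from that of H3K4me3 in the same experiment by 5.00 ± 3.75 points (SD, n = 5 stages), higher in 4 of 5 stages and equal in LE (exact sign-flip permutation test over 5 stage pairs, p = 0.125, in a design of 32 sign patterns that cannot reach 0.05). In LE of experiment 2 the same 65 genes were called by both antibodies, and only Rpl41 in ZY had H3K4me3 without H3K4me2/3. Among the other genes with H3K4me2/3 at all 5 stages, 88.3% had H3K4me3 in LE of experiment 2. For EP the study lists a different chromatin preparation for each antibody under experiment 2, unlike the other stages, and without EP the difference was 3.82 points (exact sign-flip permutation test over the other stages, p = 0.25). At lists trimmed to equal sizes the difference was -3.61 points (exact permutation p = 0.625).

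The H3K4me2/3 peak was the wider of the pair at 64 of the 65 members called for both marks in LE and at all 60, 58, 60 and 63 in ZY, EP, LP and DI. This was not counted at the other genes, so it is not shown to be particular to the members. The other genes' median H3K4me3 widths in experiment 2 were 828, 581, 401, 655 and 939 bp from LE to DI, below their H3K4me2/3 medians. The median H3K4me2/3 width at members was 1408 bp in LE, 1446 bp in ZY, 1472 bp in EP, 2009 bp in LP and 1976 bp in DI, against 1437, 1317.5, 1249.5, 1751 and 1858 bp at the other genes. At 41 of 65 members (63.1%) both late peaks were wider than all 3 earlier ones, against 51.8% of the other genes, and at 3 members (4.62%) both were narrower, against 8.00%. The median ratio of the mean of LP and DI to the mean of the earlier stages was 1.31 at members and 1.30 at the other genes. The course had 1 library per stage and no test.

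Rpl18 had the largest ratio, 3.46, with 1110, 1308, 1496, 4688 and 4337 bp from LE to DI, where 2 separate peaks at its starts gave way to 1 that covered both. Rps2, on which the fidelity of decoding depends, had 1189, 1181, 1679, 4197 and 2845 bp. Rpl10a had 1408, 1050, 1016, 2509 and 2865 bp, Rps13 1628, 1275, 1583, 3422 and 3466 bp, and Rpl8 1186, 958, 1108, 2243 and 2105 bp. Each of these 5 was wider in both late stages than in any earlier one. Rpl3 had the lowest ratio, 0.616, with 1941, 906, 460, 425 and 932 bp at the start next to Syngr1. Both late peaks were narrower than all earlier ones at Rpl6 (953, 1038, 1122, 779 and 894 bp), Rpl23a and Rps10 (1327, 1167, 1176, 1065 and 863 bp).

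H3K9ac varied most between lists. It was called at 36 members in LE (other genes 14.8%), 64 in ZY (41.8%), 64 in EP (35.5%), 19 in LP (8.3%) and 1 in DI (2.08%). The lists held 2823, 16003, 7744, 1727 and 516 peaks in the same order, so the low counts in LP and DI went with short lists, whose part in them was not tested. The median width at members was 421 bp in LE, 1152 bp in ZY, 1000 bp in EP and 233 bp in LP, against 430, 991, 755 and 346 bp at the other genes. The share differed from that of H3K4me3 in experiment 1 by -27.2 ± 31.4 points (SD, n = 5 stages; exact sign-flip permutation test, p = 0.25, in a design of 32 sign patterns that cannot reach 0.05), and by 7.78 points at lists trimmed to equal sizes (p = 0.5).

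In EP and ZY, where its lists were longest, H3K9ac was called at nearly the same members as H3K4me3. This overlap was not counted at the other genes, so it is not shown to be particular to the members. In EP of experiment 1 both marks were called at the same 64 members and at none of the other 8. In ZY, 59 members had both marks and 5 had H3K9ac alone: Rpl6, Rpl26, Rpl29, Rpl35 and Rps10. The 19 members called in LP all had H3K4me3 there too. In LE 30 had both, 25 had H3K4me3 alone and 6 had H3K9ac alone. Rps13, a small subunit protein that bridges to the large subunit, was the only member called at all 5 stages, with 356 bp in LE, 1071 bp in ZY, 1143 bp in EP, 286 bp in LP and 147 bp in DI. Among the members called at 4 stages, Rps28 had 668, 1136, 1020 and 794 bp from LE to LP, Rpl27a 900, 1291, 1691 and 183 bp, and Rps24 308, 1686, 1012 and 177 bp. Rpl3 had no H3K9ac peak in any stage.

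Paralogs and other genes of the ribosome outside the symbol rule were examined beside the members. Rpl10l, the autosomal retrogene that supplies the Rpl10 protein when the X chromosome is silenced in meiosis, had H3K4me3 in all 10 libraries, with 543 and 950 bp in LE, 843 and 558 bp in ZY, 680 and 587 bp in EP, 632 and 620 bp in LP, and 1077 and 1107 bp in DI. Its mean of 760 bp lay within the members' range. Rpl39l, a paralog of X-linked Rpl39 expressed in testis, was called in 9 libraries (mean 517 bp) and had no peak in LE of experiment 1. Rpl36al, a paralog of X-linked Rpl36a, was called in all 10 with a mean of 1450 bp, above that of every member called in all 10 but Rpl4. Rps27l was called in all 10, Rpl22l1 in 9, Rps3a1 in 8, Rpl7l1 in 7, and Rack1, a scaffold on the small subunit, in 2. Rpl3l, the paralog of striated muscle, had no H3K4me3 peak but H3K4me2/3 at all 5 stages. Fau and Rps27rt had no peak of any mark.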

How the data were processed

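ChIP-Seq peak lists of 20 libraries were used, and the other 31 samples were not analysed here. The authors aligned reads to mm10 with BWA 0.7.12 and called H3K4me3 peaks with MACS2 2.1.2 in broad mode, per library, against input of the same stage. For H3K9ac the control is not given in the sources used here. The deposited lists give each peak's chromosome and bounds, without scores or read counts, so read depth was not used and a site without a peak can carry the mark below threshold. The authors removed blacklisted regions before overlap analysis, which is not stated for the lists.

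TSSs were the 5′ ends of GENCODE M21 transcripts, with 500 bp on either side and a minimum overlap of 1 bp. The representative start was that of the APPRIS principal transcript. Libraries were grouped by labelled stage. Contrasts used two-sided exact permutation tests over libraries with Benjamini-Hochberg adjustment over 6 tests and a threshold of 0.05, in Python 3.11.15 (numpy 2.4.6, scipy 1.17.1), and the steps were tested on simulated lists. Sequence was read with samtools 1.23.1. Members, gene lists, tests and alternatives were chosen with earlier results of these data known. The checks on cell type genes, repeated words, genes with H3K4me2/3 at all stages and peak positions were added after seeing the data. Genes named by rule were members absent from H3K4me3 libraries (up to 20), the 5 widest and 5 narrowest of those in all 10, members without H3K4me2/3 in a stage, the 8 with H3K9ac at most stages, the stalk, Rpsa, Rpl5, Rpl11, Rps19, Rps27a and the paralogs. Other genes were named after their values were seen. Alternatives were other TSS windows, a larger overlap, representative starts, equal list sizes, wider peaks, members without a neighbouring start, summed widths, a replicate block and leaving out each library. Some genes and sequences that the naming rule covers are not reported here.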

Additional observations from a re-analysis of the deposited data

How the results depend on the processing

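The lists give calls without scores or depth, so how far depth limits each count was not tested. Of 170 recomputed values that answer a comparison, 144 kept their direction and side of the threshold, or stayed within 1.5 times for a count. With lists of equal size, the share difference was -30.3 points for LE and ZY against later stages and 33.9 points for EP and LP against the rest, the rank differences were -16.2 and 17.2 points, 2 members were called in all 10 libraries and 38 lost a call, and the differences from H3K4me3 were -3.61 points for H3K4me2/3 and 7.78 points for H3K9ac. With only peaks wider than the list median, the LE and ZY width difference was -108 bp, the rank differences were -21.8 and 21.3 points, and the counts were 6 and 19. The EP and LP rank difference was 0.93 points with windows of 250 bp, 2.87 with an overlap of 200 bp, 0.98 without members near another start and 0.42 with summed widths. The EP and LP share difference was -1.39 points with that overlap. The causes were not tested, and lists cut by width cannot separate stage from the cut.

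Leaving out 1 library at a time gave, for LE and ZY against later stages, share differences of -0.28 to 4.86 points, width differences of 53.6 to 165.8 bp and rank differences of 1.87 to 5.25 points. For EP and LP the ranges were -1.53 to 3.19 points, -249 to -161 bp and -3.39 to 1.17 points. The sign turned without DI of experiment 1 (both shares), EP of experiment 1 (EP and LP share) and EP of experiment 2 (EP and LP rank). The count in all 10, then 9, libraries was 37 to 43 and the count that lost a call 6 to 17. Leaving out a stage gave 3.82 to 6.25 points for H3K4me2/3 and -35.8 to -17.7 points for H3K9ac.

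With the replicate block, permuting within experiments, the exact p-values were 0.62, 0.38 and 0.35 for the LE and ZY share, width and rank, and 0.82, 0.06 and 0.78 for EP and LP, and no call changed. Of 10 stage pairs, 3 had correlations over 0.1 between same-numbered libraries (-0.205 to 0.451). The labels name the libraries by experiment without saying whether stages share animals, and these correlations do not show a pairing.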

Other observations

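Genes that work with the ribosomal proteins were counted the same way. Of 30 ribosome biogenesis genes, 15 had H3K4me3 in all 10 libraries (18.1% of genes outside the ribosomal protein set). Of these 30, 29 had H3K4me2/3 at all 5 stages (48.6% of those other genes) and Rrp1 had no peak in any list. 5 of them (16.7%, against 13.7% of those other genes and 8.33% of the ribosomal protein genes) lost an H3K4me3 call: Ubtf, a factor of RNA polymerase I, and Nop10 in EP, Nhp2 in LP, and Polr1b and Tsr1 in LP and DI. Of 15 translation factors and other genes whose messenger RNAs carry a terminal oligopyrimidine tract, 9 had H3K4me3 in all 10 libraries. H3K4me2/3 at all 5 stages was found at 11 of the 15 (73.3%), against 90.3% of the ribosomal protein genes and 48.6% of genes outside that set. None of these differences was tested. Pabpc1, the cytoplasmic poly(A)-binding protein, had a mean H3K4me3 width of 1858 bp and H3K9ac at all 5 stages. Eef2, an elongation factor, and Hnrnpa1 had no peak in any of the 20 lists used here. Eef1g lost its H3K4me3 call in ZY.

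Of the 248 processed pseudogenes of ribosomal protein genes, 43 (17.3%) had a peak of some mark at their annotated start, and 42 of these had no start of a protein-coding gene in the window. The other 82.7% had no peak in any list, against 31.5% of protein-coding genes outside the ribosomal protein set. All 43 had H3K4me2/3 in at least 1 stage, but only 2 at all 5 stages, and 6 had H3K4me3 in any library.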
